A study of Mus with 17 samples.

Results

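The genes described here make cholesterol from acetyl-CoA or control that synthesis through SREBP2, the transcription factor encoded by Srebf2. They are 27 genes named from knowledge of the pathway, with earlier results of these data known, of 24937 genes with values. All 27 were present, and all 27 were among the 13204 genes that passed the low count filter and were tested. Whole liver of 17 male C57BL6/JBomTac mice was measured by bulk RNA sequencing, 1 library per mouse. Of these, 8 mice were kept for 52 weeks on a western diet, with 42 g of fructose per litre in what they drank, a feeding model of advanced steatohepatitis, and 9 mice of the same age ate standard chow and drank plain water. All mice carried the same genotype, were fasted overnight before sacrifice, and had no other treatment named in the labels. The source name of every sample reads western diet, so the groups were taken from the treatment field.

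Cholesterol is built in stages. Acetyl-CoA is condensed to mevalonate, mevalonate is turned into isoprenoid units, these are joined into squalene, and squalene is closed into lanosterol, which a chain of endoplasmic reticulum enzymes trims to cholesterol. SREBP2 switches on the genes of nearly every stage: when membrane sterol is low, the escort protein SCAP carries SREBP2 to the Golgi, where proteases release its active part, and when sterol is plentiful the INSIG proteins hold SCAP and SREBP2 back. The liver is a main site of this synthesis, and it also takes up cholesterol from the diet and turns it into bile acids.

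Library totals were 3604212 to 8818385.5 counts on western diet and 5231165.5 to 9071908.5 counts on chow. A level of 3 counts, the most that a count of 0 allows for counting error alone, was 0.314 to 0.85 CPM (counts scaled to a common library total, with TMM factors). Hepatocyte markers were high in every library: Alb, the serum albumin gene, was at 2698 to 5180 CPM on western diet and 3713 to 5383 CPM on chow. No marker of the 7 cell type lists was at 0 in any library. Transcripts of pancreatic acinar cells summed to 5378 CPM in western diet replicate 5 and 16932 CPM in chow replicate 2, against 170.5 to 642 CPM in the other libraries, and counts that lead the results below are also given without these 2 libraries. Dbp, a clock gene whose level changes strongly over the day, was at 10.8 to 88.8 CPM on western diet (median 63.5) and at 8.25 to 203 CPM on chow (median 90.1).

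Western diet livers held less transcript of most of the pathway. Of the 27 genes 21 fell, 2 rose and 4 did not pass by edgeR's quasi-likelihood test at a Benjamini-Hochberg threshold of 0.05 over all genes tested. Of all tested genes 23.6% fell and 24.8% rose, 48.4% in all. The falls of 10 genes were at least 2-fold, a size that 1.14% of all tested genes fell by. In 12 genes every western diet library lay below every chow library, which held for 5.05% of all tested genes; in none did every western diet library lie above every chow library, which held for 6.98%. The median log2 difference (western diet minus chow) was −0.62 over the 27 genes and −0.0091 over all tested genes. Without western diet replicate 5 and chow replicate 2, 21 genes fell and 0 rose (1 was higher at an unadjusted p under 0.05): by edgeR the genes that otherwise rose missed the threshold, Aacs at adjusted p = 0.0615 and Ggps1 at adjusted p = 0.133. With Dbp as a covariate 22 fell and 2 rose.

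Whole liver does not separate its cells, so fewer cells of a type and less RNA per cell cannot be told apart. Of 12 hepatocyte markers 2 fell, Alb and Hnf4a, and 10 did not pass, with a median log2 difference of −0.15 and a summed level of 11681 to 19723 CPM on western diet and 14160 to 19389 CPM on chow. All 8 macrophage markers rose (summed level 1047 to 1705 CPM on western diet, 439 to 683 CPM on chow), as did all 8 markers of stellate cells and fibroblasts (777 to 1443 CPM on western diet, 544 to 676 CPM on chow) and all 5 of bile duct (194 to 514 CPM on western diet, 72.5 to 133 CPM on chow). Of 5 endothelial markers 2 rose and 2 fell (243 to 469 CPM on western diet, 351 to 423 CPM on chow), and of 5 lymphocyte markers 3 rose (11.8 to 110.3 CPM on western diet, 6.14 to 41.9 CPM on chow). None of the 12 acinar markers passed edgeR's test (lowest adjusted p = 0.277). The part of these cell types in the falls was not tested.

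**Figure D1:**
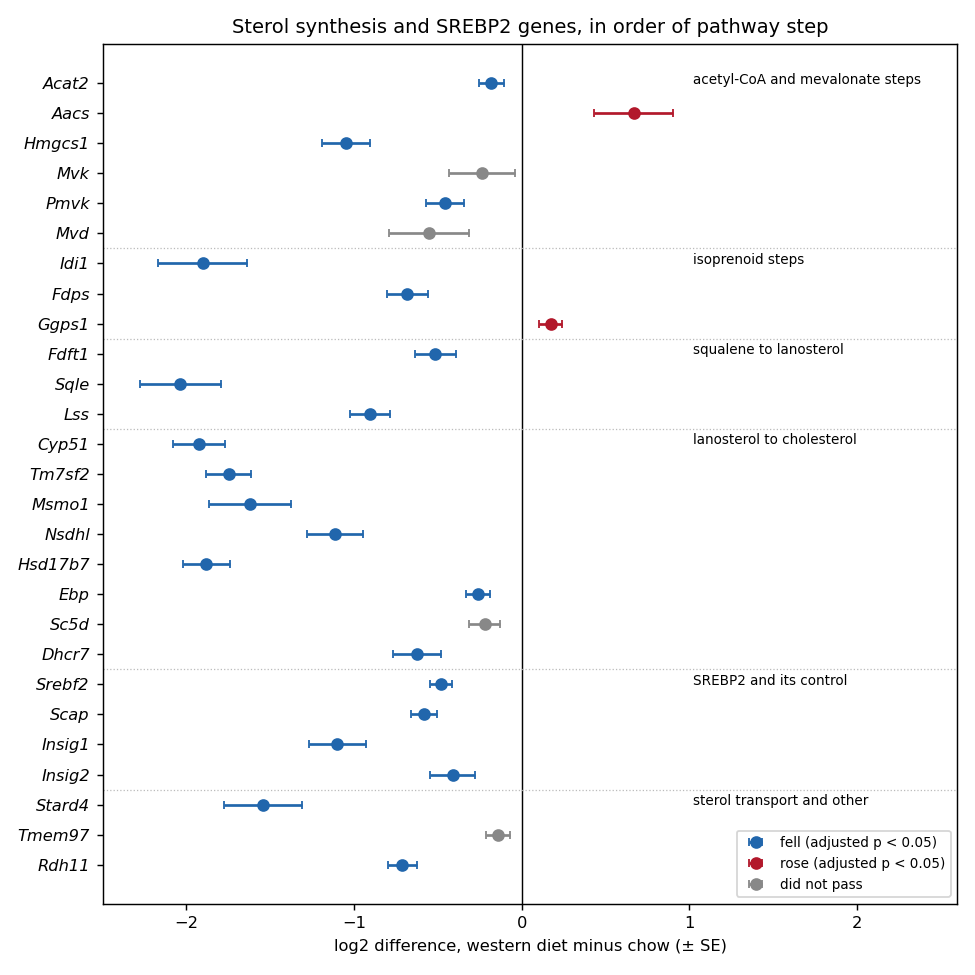
Log2 difference (western diet minus chow, ± SE, horizontal axis) of the 27 genes in order of pathway step, coloured by the outcome of edgeR's test (n = 8 and 9). Idi1, Sqle, Cyp51, Tm7sf2, Msmo1, Hsd17b7 and Stard4 lie between −2.04 and −1.54, Acat2, Ebp, Sc5d and Tmem97 lie near 0, and Aacs and Ggps1 lie to its right.

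The first stage, from acetyl-CoA to the activated isoprene precursor, moved unevenly. Its largest difference was in Hmgcs1, which joins acetyl-CoA and acetoacetyl-CoA into HMG-CoA in the cytosol. Hmgcs1 was 2.07-fold lower, with 188 ± 28.6 CPM on western diet and 388 ± 97.1 CPM on chow (mean ± SD, n = 8 and 9; edgeR's test, adjusted p = 7.02e-06). In 7 of 8 western diet livers Hmgcs1 lay below all chow livers; the chow liver nearest to them was replicate 9, at 218 CPM. Pmvk, the kinase that adds the next phosphate to phosphomevalonate, fell by 0.46 ± 0.12 on the log2 scale (± SE), with 17.7 to 22.7 CPM on western diet and 21.8 to 40.9 CPM on chow. Acat2, the cytosolic thiolase that makes acetoacetyl-CoA, fell by 0.18 ± 0.074 on the log2 scale (edgeR, adjusted p = 0.0476), but of 17 fits with 1 library left out 12 lost the call (adjusted p = 0.017 to 0.115 over the 17); it held without western diet replicate 1 or 8 and without chow replicate 1, 2 or 6. Mvk, mevalonate kinase, and Mvd, the decarboxylase that ends the stage, did not pass (−0.24 ± 0.20 and −0.55 ± 0.24 in log2; adjusted p = 0.346 and 0.0597 by edgeR). Mvd did pass without western diet replicate 7 or without chow replicate 2, 3 or 9 (adjusted p = 0.0173 to 0.0497 by edgeR). Both spanned a wider range on chow: Mvd lay between 3.90 and 7.54 CPM on western diet and between 3.58 and 15.7 CPM on chow.

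Aacs, which activates the ketone body acetoacetate in the cytosol so that it can enter sterol and fatty acid synthesis, was 1 of the 2 genes that rose. Its lowest, median and highest levels were 13.8, 40.3 and 48.1 CPM on western diet, and 14.9, 20.8 and 40.0 CPM on chow. The groups overlapped: 4 western diet livers lay above all chow livers, and western diet replicate 3, at 13.8 CPM, lay below them all. The rise was 1.59-fold (log2 difference 0.67 ± 0.24, adjusted p = 0.0266 by edgeR). It missed the threshold without western diet replicate 4 (adjusted p = 0.0506 by edgeR) or western diet replicate 7 (adjusted p = 0.056).

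Of the isoprenoid enzymes, those on the way to squalene fell and the one at the branch to protein prenylation rose slightly. Idi1, the isomerase that makes dimethylallyl diphosphate, was 3.74-fold lower, at 1.98 to 4.50 CPM on western diet and 5.40 to 20.9 CPM on chow with no overlap (adjusted p = 8.86e-06 by edgeR); its counts ran from 7 to 190 per library, 7 being the lowest count of any of the 27 genes. Fdps, which makes farnesyl diphosphate, was 1.60-fold lower, with 40.05 ± 4.53 CPM on western diet and 64.3 ± 14.4 CPM on chow (adjusted p = 1.80e-04 by edgeR). The groups overlapped through chow replicate 9, which at 37.4 CPM lay within the western diet range.

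Ggps1 makes geranylgeranyl diphosphate, the lipid attached to small GTPases. It had a lowest, median and highest level of 21.0, 23.9 and 28.1 CPM on western diet, and 19.8, 20.8 and 23.3 CPM on chow. The ranges overlapped, with 4 western diet livers above all chow livers. The rise was 1.13-fold (log2 difference 0.17 ± 0.069, adjusted p = 0.043 by edgeR), and it held in 6 of the 17 fits with 1 library left out, those without western diet replicate 2, 4, 6 or 7 or chow replicate 7 or 8 (adjusted p = 0.0223 to 0.0893 over the 17). It was also lost with DESeq2 and limma-voom (adjusted p = 0.103 and 0.0625).

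From farnesyl diphosphate to lanosterol all 3 enzymes fell, where 23.6% of all tested genes fell. Sqle, squalene epoxidase, puts in the first oxygen of the sterol and is a control point of the pathway. Its lowest, median and highest levels were 8.30, 11.2 and 13.1 CPM on western diet, and 21.2, 39.3 and 84.4 CPM on chow. Every western diet liver lay below every chow liver, and the chow livers differed among themselves more than the western diet livers did. Sqle was 4.10-fold lower (log2 difference −2.04 ± 0.24, adjusted p = 2.77e-06 by edgeR), a steeper fall than in all but 0.22% of the tested genes.

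Lss, which folds oxidosqualene into the ring system of lanosterol, had a lowest, median and highest level of 21.4, 22.8 and 28.2 CPM on western diet, and 32.8, 47.0 and 61.4 CPM on chow. Again no library overlapped between the diets. Its fall was 1.87-fold (adjusted p = 4.74e-06 by edgeR). Fdft1, squalene synthase, fell by 0.52 ± 0.12 on the log2 scale, with overlapping ranges of 54.7 to 76.0 CPM on western diet and 61.8 to 138 CPM on chow. In the RefSeq annotation Fdft1 overlaps Ctsb, a lysosomal protease gene at 934 CPM on western diet and 726 CPM on chow, which rose by 0.36 ± 0.081 in log2; reads from the overlap cannot be told apart without strand.

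**Figure D2:**
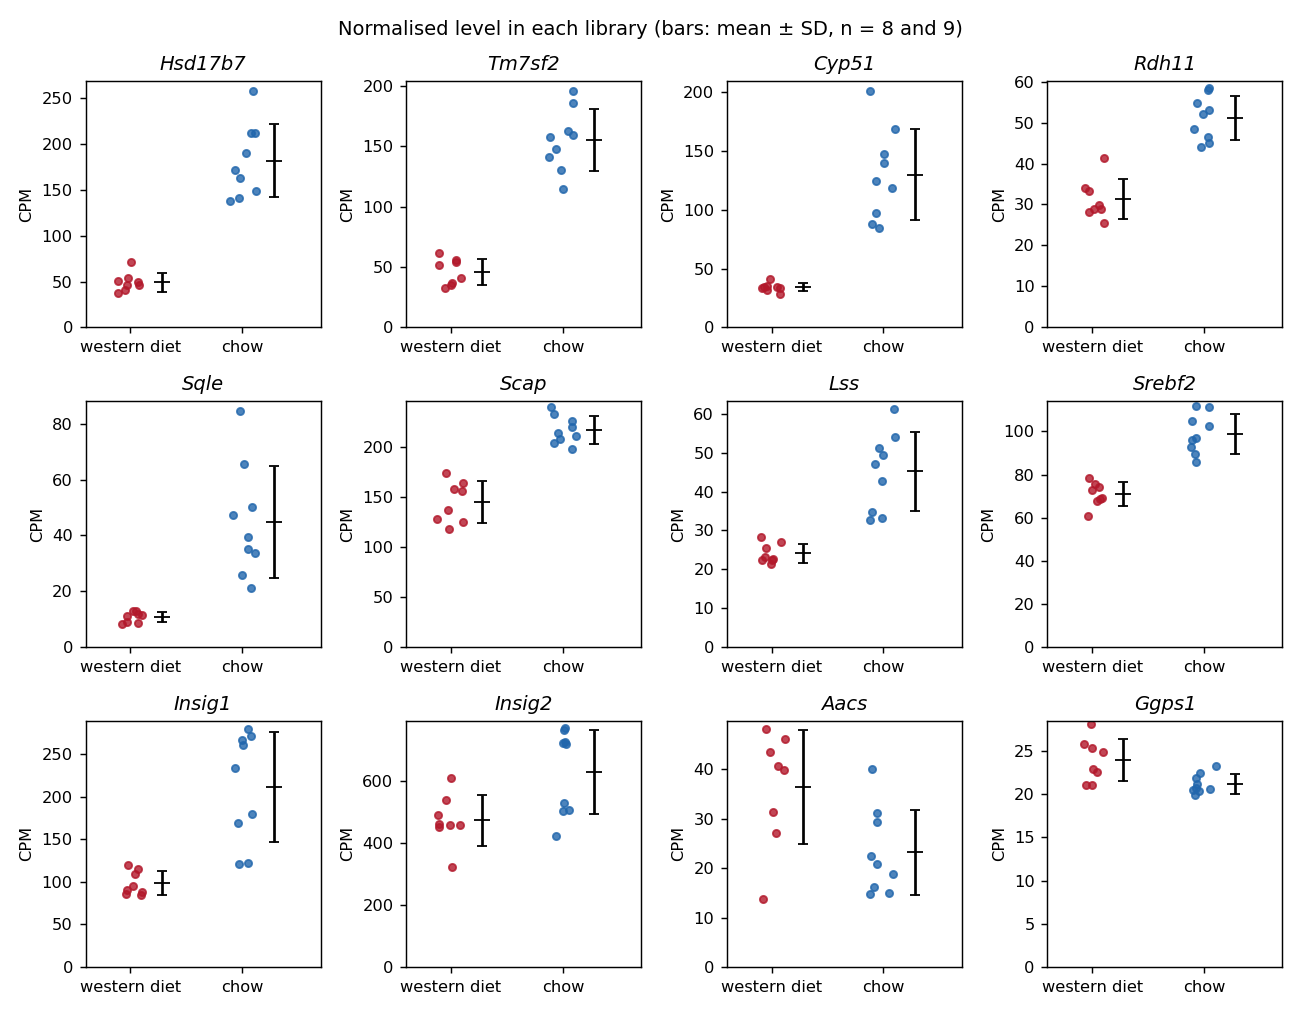
Level of 12 genes in each library (CPM, vertical axes starting at 0), western diet left and chow right, with mean ± SD as black bars (n = 8 and 9). The first 9 panels show no overlap between the diets, as in Hsd17b7 with 37.3 to 71.8 CPM on western diet and 138 to 258 CPM on chow, whereas Insig2, Aacs and Ggps1 overlap.

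The enzymes that turn lanosterol into cholesterol held 5 of the 10 falls of at least 2-fold, in Cyp51, Tm7sf2, Msmo1, Nsdhl and Hsd17b7. Of 8 such genes 7 fell and 1 did not pass, with a median log2 difference of −1.37. Of all tested genes 23.6% fell, and 1.14% fell at least 2-fold. Hsd17b7, the reductase that restores the hydroxyl group after demethylation, had the smallest p of the 27 genes. Its lowest, median and highest levels were 37.3, 47.9 and 71.8 CPM on western diet, and 138, 171.5 and 258 CPM on chow. No library overlapped, and the fall was 3.68-fold (log2 difference −1.88 ± 0.14, adjusted p = 7.00e-09 by edgeR).

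Tm7sf2, a sterol reductase of the endoplasmic reticulum, had a lowest, median and highest level of 32.5, 46.4 and 61.3 CPM on western diet, and 115, 158 and 196 CPM on chow. Every western diet liver was below every chow liver, and the fall was 3.36-fold (adjusted p = 1.09e-08 by edgeR). Tm7sf2 overlaps Vps51, a gene of vesicle transport, whose level did not pass the test (log2 difference 0.094 ± 0.071, adjusted p = 0.286 by edgeR). Cyp51, the cytochrome that demethylates lanosterol, had a lowest, median and highest level of 28.6, 33.95 and 41.3 CPM on western diet, and 84.95, 124.8 and 201 CPM on chow. It was 3.80-fold lower with no overlap (adjusted p = 2.33e-08 by edgeR).

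Msmo1 and Nsdhl, which remove methyl groups from the ring in turn, were 3.07-fold and 2.16-fold lower. Msmo1 was at 27.9 to 42.7 CPM on western diet and 50.7 to 197 CPM on chow, without overlap. Nsdhl was at 12.5 to 24.5 CPM on western diet and 23.4 to 53.9 CPM on chow, where western diet replicate 7 lay just above chow replicate 9. The other enzymes of this stage differed by less: Ebp, the sterol isomerase, fell by 0.26 ± 0.073 on the log2 scale, and Dhcr7, the reductase of the final step of one branch, by 0.62 ± 0.15 (adjusted p = 0.00578 and 0.00159 by edgeR). Sc5d, the desaturase before Dhcr7, was at 322 ± 19.6 CPM on western diet and 375 ± 62.9 CPM on chow (mean ± SD) and did not pass (log2 difference −0.22 ± 0.092, adjusted p = 0.0529 by edgeR); it passed without western diet replicate 3 or without chow replicate 1 or 2 (adjusted p = 0.00613 to 0.0442 by edgeR).

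All 4 genes of SREBP2 and its control fell, with a median log2 difference of −0.53, where 23.6% of all tested genes fell. Srebf2 had a lowest, median and highest level of 60.8, 71.0 and 78.5 CPM on western diet, and 85.6, 96.8 and 112 CPM on chow. The diets did not overlap, although the fall was only 1.39-fold (log2 difference −0.48 ± 0.064, adjusted p = 5.66e-06 by edgeR). Scap, the escort of SREBP2, had a lowest, median and highest level of 118, 147 and 174 CPM on western diet, and 199, 214 and 241 CPM on chow. Its fall was 1.497-fold, again without overlap (adjusted p = 4.65e-06 by edgeR).

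Both INSIG genes, which retain SCAP when sterol is plentiful, were lower. Insig1, which is itself switched on by SREBP2, had a lowest, median and highest level of 84.95, 93.02 and 119.5 CPM on western diet, and 121.1, 234 and 280 CPM on chow. The highest western diet liver lay just below the lowest chow liver, and the fall was 2.14-fold (adjusted p = 3.62e-05 by edgeR). Insig2, which does the same work and is not known as a main SREBP2 target, had a lowest, median and highest level of 321, 460 and 608 CPM on western diet, and 422, 717 and 771 CPM on chow. The ranges overlapped, and on chow 4 livers lay at 422 to 528 CPM and 5 at 717 to 771 CPM. Its fall was 1.33-fold (log2 difference −0.41 ± 0.13, adjusted p = 0.0149 by edgeR), and it was lost without western diet replicate 5 and chow replicate 2 together (adjusted p = 0.0506) and with unscaled library sizes (adjusted p = 0.0658, against 0.00615 to 0.0193 in the other scalings, filters and tools). The call was also lost in a test against a 1.5-fold change and at a threshold of 0.01, in all 4 of 14 alternatives.

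Among the genes of sterol transport and other SREBP2 targets, Stard4, a carrier that moves cholesterol between membranes, fell 2.91-fold, with 32.3 to 55.5 CPM on western diet and 60.99 to 218 CPM on chow. Rdh11, a retinol dehydrogenase that SREBP also switches on, had a lowest, median and highest level of 25.6, 29.4 and 41.3 CPM on western diet, and 44.1, 52.1 and 58.5 CPM on chow. In neither gene did the diets overlap, and the fall of Rdh11 was 1.64-fold (adjusted p = 2.15e-06 by edgeR). Tmem97, a sterol-binding membrane protein, was at 73.0 ± 5.71 CPM on western diet and 80.4 ± 9.24 CPM on chow and did not pass (log2 difference −0.14 ± 0.071, adjusted p = 0.108 by edgeR), except without chow replicate 3 (adjusted p = 0.0408).

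On the mouse assembly GRCm38.p6, also called mm10, the genes were spread over many chromosomes. Sqle lay on chromosome 15, 59315092 to 59331193, and Srebf2 on the same chromosome, 82147269 to 82205379. Hsd17b7 lay on chromosome 1, 169949535 to 169969242, and Insig2 on the same chromosome, 121304353 to 121332662. Chromosome 5 carried Cyp51, 4080674 to 4104697, Insig1, 28071412 to 28078662, Mvk, 114444264 to 114460591, and Aacs, 125475873 to 125517405. Tm7sf2 lay on chromosome 19, 6062821 to 6067850, Lss on chromosome 10, 76531565 to 76557139, Scap on chromosome 9, 110333288 to 110384949, Rdh11 on chromosome 12, 79174233 to 79191855, and Ggps1 on chromosome 13, 14049790 to 14063566. These positions run from the first to the last annotated base of a gene, introns included.

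The western diet livers differed in how many genes lay below the chow range. Each western diet library had between 14 and 21 of the 27 genes below the lowest chow library, 14 in replicate 7 and 21 in replicate 5. The same count per library was not made over all tested genes, so these counts have no background beside them. Replicate 5 also held 5378 CPM of pancreatic acinar transcripts and the least Alb, 2698 CPM. Summed over the 27 genes, the level was 1806 to 2239 CPM on western diet and 2963 to 3939 CPM on chow. Chow replicate 9 was the lowest chow library for 9 genes, among them Hmgcs1, Fdps, Nsdhl, Dhcr7, Srebf2 and Rdh11. Chow replicates 1, 2 and 3 held the least Msmo1 (60.9, 50.7 and 57.9 CPM, where the other 6 had 81.3 to 197 CPM) and the least Stard4 (65.3, 60.99 and 102 CPM, where the other 6 had 117 to 218 CPM). These 3 libraries also held the least Dbp of the chow livers (13.01, 8.25 and 12.9 CPM, where the other 6 had 46.2 to 203 CPM), and the part of the time of day in their levels was not tested.

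**Figure D3:**
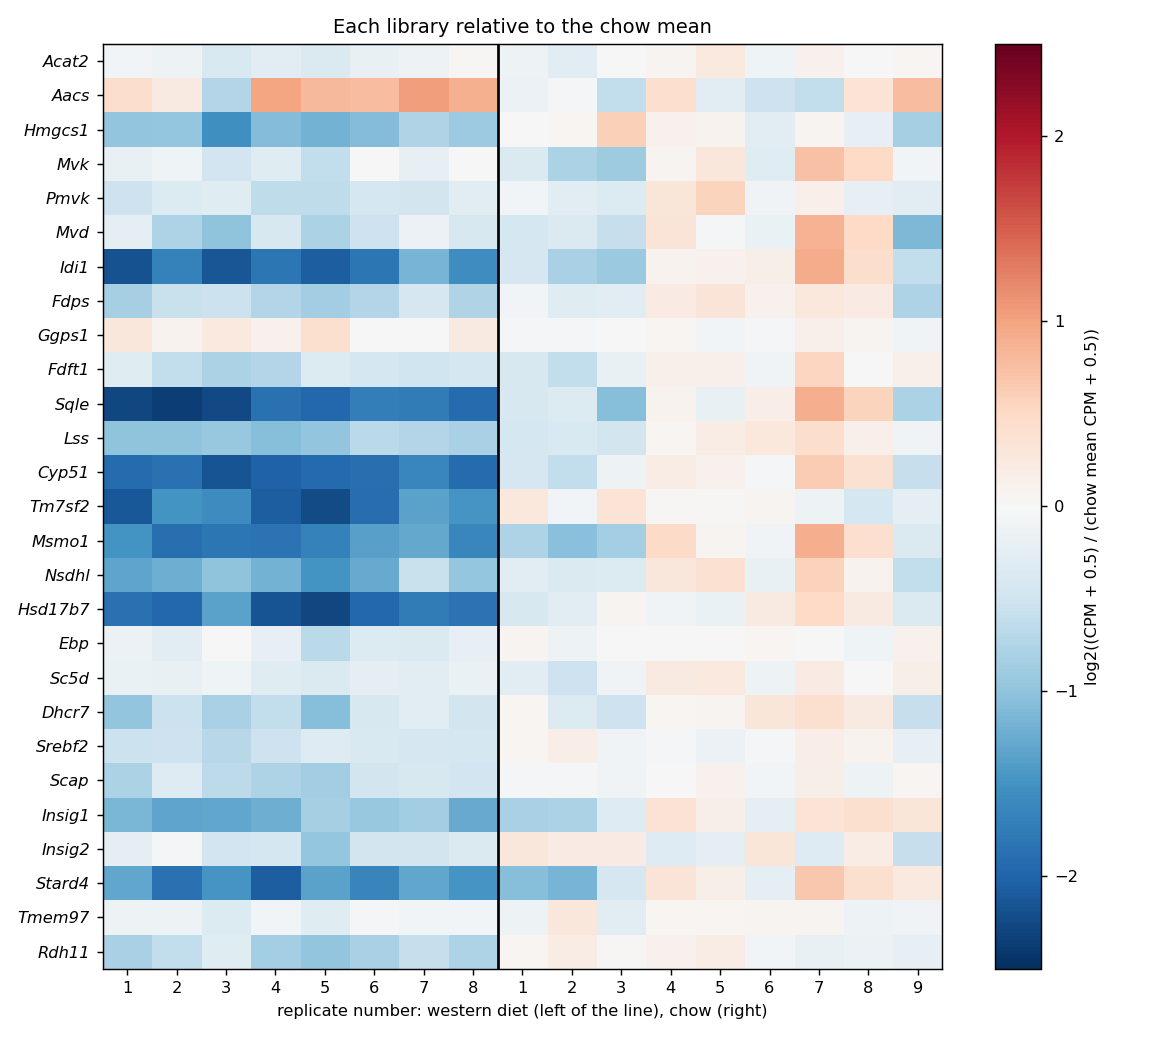
Level of each gene (rows, in pathway order) in each library (columns, western diet left of the line, chow right) as log2 of (CPM + 0.5) over the chow mean. Most rows are blue across all 8 western diet columns, Aacs is red in 7 of them, and chow replicates 1 to 3 and 9 are paler or bluer than the other chow columns in Idi1, Sqle and Msmo1.

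The spread between livers of a diet was larger on chow for most of these genes. The coefficient of variation was higher on chow in 22 of the 27 genes, and in 53.3% of all tested genes. Its median over the 27 genes was 15.2% on western diet and 23.1% on chow, and over all tested genes 14.6% on western diet and 14.9% on chow. Sqle (17.7% on western diet, 44.8% on chow), Msmo1 (16.4% on western diet, 46.6% on chow) and Stard4 (18.3% on western diet, 39.3% on chow) were among the widest on chow. Scap, by contrast, varied by 14.3% on western diet and 6.37% on chow. The difference in spread was not tested.

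Ratios of 2 genes within a library do not depend on the scaling between libraries, and 2 are given here, compared by an exact permutation test over all 24310 labellings of the mice, two-sided, with adjustment over the 3 ratios computed. The ratio of Sqle to Srebf2, a target to its factor, was 0.121, 0.152 and 0.177 on western diet (lowest, median and highest, in counts) and 0.230, 0.440 and 0.757 on chow. No library overlapped; the mean log2 ratio was lower by 1.46 on western diet (difference −1.46, exact permutation adjusted p = 2.47e-04). Sqle thus fell by more than Srebf2 did.

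For the INSIG pair the difference did not pass. The ratio of Insig1 to Insig2 was 0.140, 0.193 and 0.372 on western diet and 0.159, 0.390 and 0.618 on chow, and the mean log2 difference of −0.65 had an exact permutation adjusted p = 0.0529. On chow the ratio was 0.159, 0.169, 0.232 and 0.233 in replicates 1, 2, 3 and 6, and 0.390 to 0.618 in the other 5. Those 4 livers held 8.25 to 46.2 CPM of Dbp and the other 5 held 90.1 to 203 CPM; on western diet the highest ratio, 0.372, was that of replicate 5, with 62.1 CPM of Dbp. The part of the time of day in the ratio was not tested. Leaving out western diet replicate 5, or any 1 of chow replicates 1, 2, 3 and 6, brought the exact permutation p under the threshold (0.0199 to 0.0463).

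**Figure D4:**
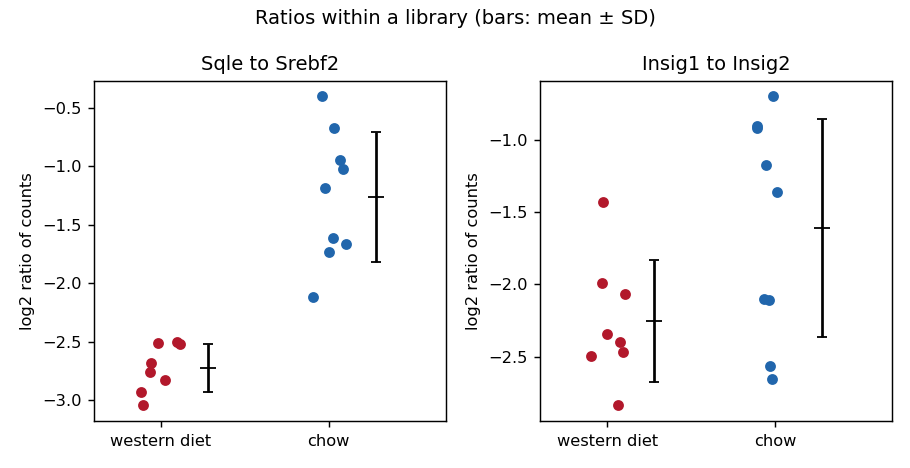
Log2 ratio of counts within each library (vertical axes) for 2 pairs of genes, western diet left and chow right, with mean ± SD as black bars (n = 8 and 9). The Sqle to Srebf2 ratio separates the diets, and the Insig1 to Insig2 ratio on chow lies in a lower set of 4 livers and an upper set of 5.

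To see which genes moved together from liver to liver, the other 26 genes, Dbp, Trem2, Col1a1 and Alb were each set against Sqle within a diet, 30 relations a diet, on log2(CPM + 0.5). On chow (n = 9) 4 of the 26 genes passed, all positively. The count was 4 without chow replicate 2 and 10 with library size alone. The share of all tested genes that follow Sqle was not computed, so the count has no background beside it. Idi1 followed Sqle most closely (Pearson r = 0.94, exact permutation adjusted p = 0.00554; Spearman rho = 0.93, exact permutation adjusted p = 0.0112). Mvd had r = 0.91 and rho = 0.93 (exact permutation adjusted p = 0.00965 and 0.0112), Dhcr7 r = 0.90 and rho = 0.88 (exact permutation adjusted p = 0.00965 and 0.0308), and Msmo1 r = 0.83 and rho = 0.80 (exact permutation adjusted p = 0.0441 and 0.0691). Lss passed by rank only (r = 0.81, rho = 0.87, exact permutation adjusted p = 0.0532 and 0.0338). Without the 2 chow libraries farthest from the median of Sqle, replicates 7 and 3, r was 0.86 for Idi1, 0.92 for Mvd, 0.83 for Dhcr7, 0.68 for Msmo1 and 0.59 for Lss.

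The other 21 genes did not pass on chow, and their Pearson's r ran from −0.51 to 0.79. Cyp51 and Mvk had r = 0.79 (exact permutation adjusted p = 0.0532 for both). Nsdhl, Fdps, Ggps1 and Hsd17b7 had r = 0.76, 0.75, 0.73 and 0.71. Of all 26 genes, r was above 0 in 20 on chow. An unadjusted exact permutation p under 0.05 was reached by 11 of the 26 with Pearson's r and by 10 with Spearman's rho. Hmgcs1 had r = −0.075 (rho = −0.12) and Tm7sf2 r = −0.51 (rho = −0.45), with exact permutation adjusted p = 0.869 and 0.298 for r. Both had nonetheless fallen on western diet. Srebf2 had r = 0.60 (rho = 0.60, exact permutation adjusted p = 0.223 for both) and Insig2 r = −0.064. Dbp had r = 0.48 and rho = 0.38 on chow (exact permutation adjusted p = 0.333 and 0.493). On chow, Dbp was at 8.25 to 13.01 CPM in replicates 1, 2 and 3 and spread from 46.2 to 203 CPM in the others. This relation therefore mixes differences between these sets with those within them. The part of the time of day in the relations was not tested. Trem2, a macrophage receptor, Col1a1, the main scar collagen, and Alb had r = 0.24, 0.37 and −0.57 on chow (exact permutation adjusted p = 0.635, 0.474 and 0.252).

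On western diet (n = 8) none of the 26 genes passed; 1 had an unadjusted exact permutation p under 0.05 by Pearson's r (Aacs, r = 0.74) and 1 by Spearman's rho (Tmem97, rho = 0.76). The median r over the 26 genes was 0.17 on western diet and 0.54 on chow, and that over all tested genes was not computed. Sqle spanned 8.30 to 13.1 CPM on western diet and 21.2 to 84.4 CPM on chow, and the difference between the diets in these relations was not tested. Trem2, Col1a1, Alb and Dbp had r = 0.013, 0.17, −0.75 and 0.26 on western diet, none passing the adjustment (exact permutation adjusted p = 0.989, 0.901, 0.49 and 0.802). Dbp lay in separate sets on western diet as well, at 10.8 to 31.5 CPM and at 62.1 to 88.8 CPM.

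**Figure D5:**
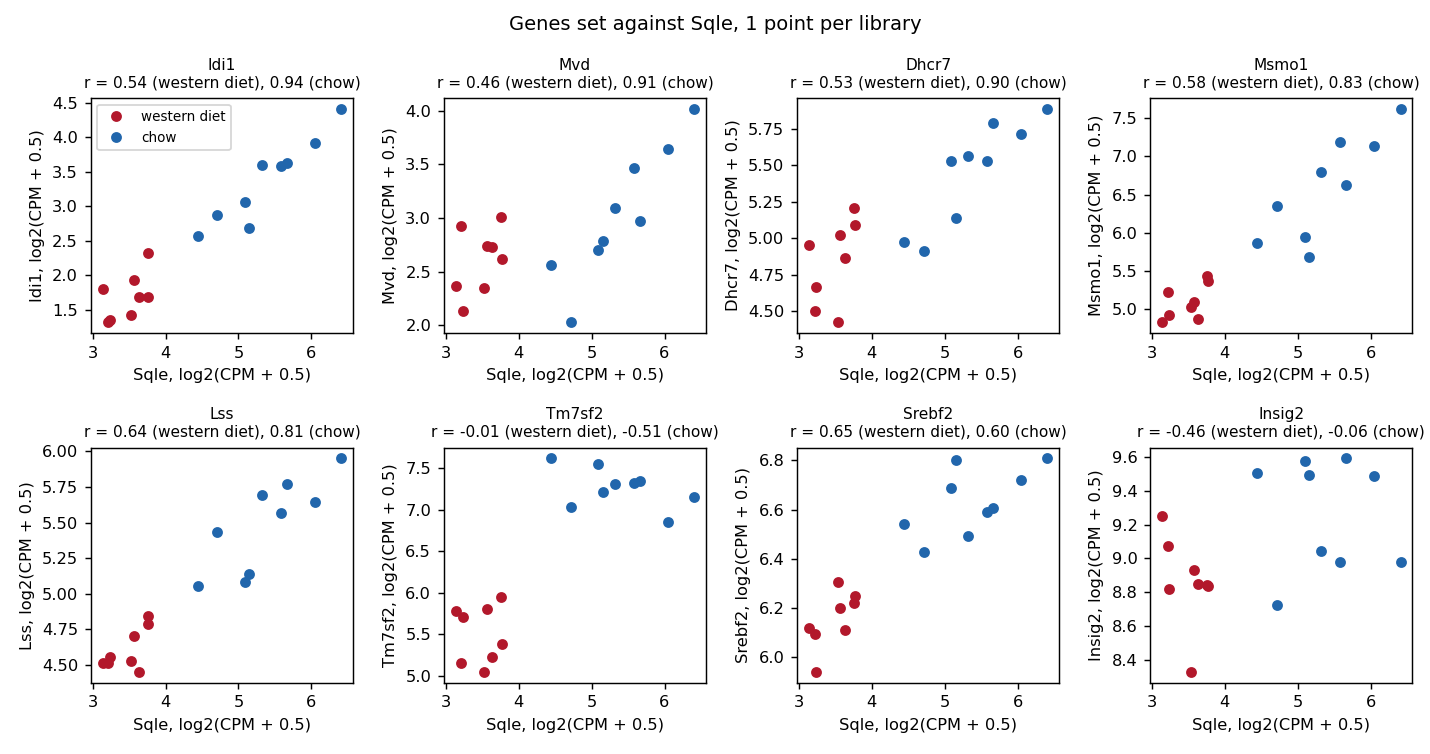
Level of 8 genes (vertical axes) against Sqle (horizontal axes), both as log2(CPM + 0.5), 1 point per liver, with Pearson's r within each diet above each panel. Among the chow livers Idi1, Mvd, Dhcr7 and Msmo1 rise with Sqle and pass by Pearson's r. Lss passes by rank only, and Tm7sf2, Srebf2 and Insig2 do not pass. The western diet livers lie in a narrow range of Sqle.

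Of 15 other genes that process SREBP or sense sterol, 4 fell, 3 rose and 8 did not pass, with a median log2 difference of −0.076. That share is near the 23.6% of all tested genes that fell and the 24.8% that rose, so the count is no result about this list. Rnf145, a ubiquitin ligase of the endoplasmic reticulum, rose 1.44-fold (73.5 ± 9.29 CPM on western diet, 51.1 ± 7.54 CPM on chow). Subunits of NF-Y, a factor that binds beside SREBP at sterol genes, went apart: Nfya rose 1.49-fold and Nfyb was 1.33-fold lower, while Nfyc was at 21.0 ± 1.55 CPM on western diet and 20.9 ± 1.52 CPM on chow (adjusted p = 0.948 by edgeR). Paqr3 and Rnf139 also fell and Usp20 also rose (−0.53, −0.19 and 0.34 in log2); here and below, genes beyond the first 4 of a list by adjusted p were named after their values were seen. The proteases that cut SREBP, Mbtps1 and Mbtps2, did not pass (−0.11 ± 0.054 and −0.098 ± 0.081 in log2).

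Of 8 genes that supply acetyl-CoA, or that act late or in parallel, 3 fell and 0 rose by edgeR, where 48.4% of all tested genes passed in either direction. The other 5 did not pass (1 of these, Acat3, was higher at 0.22 ± 0.099 in log2, unadjusted p = 0.0402, adjusted p = 0.0762 by edgeR). Without western diet replicate 5, or without chow replicate 5 or 9, 1 gene of the list rose. Slc25a1, the citrate carrier that exports carbon for cytosolic acetyl-CoA, was 1.43-fold lower (196 ± 23.9 CPM on western diet, 281 ± 22.6 CPM on chow, adjusted p = 1.45e-05 by edgeR). The mitochondrial thiolase Acat1 was 1.15-fold lower (582 ± 52.4 CPM on western diet, 667 ± 54.6 CPM on chow, adjusted p = 0.022 by edgeR). Reads of Acat2 and Acat3, which are close copies, can be shared between them.

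Of 12 enzymes that use isoprenoids for other ends, 5 fell, 1 rose and 6 did not pass, with a median log2 difference of −0.049. Of all tested genes 23.6% fell and 24.8% rose, 48.4% in all. The 6 that passed are near that last share, with more falls and fewer rises, and the split by direction was not tested. Icmt, which methylates prenylated proteins, was 1.43-fold lower, Trit1, which prenylates transfer RNA, 1.40-fold, Fnta, a subunit of the prenyl transferases, 1.22-fold, and Nus1, a subunit of the enzyme that makes dolichol precursors, 1.12-fold. Zmpste24 also fell (−0.21 ± 0.069 in log2) and Coq2, of coenzyme Q synthesis, rose (0.22 ± 0.085 in log2). The count of rises in this list was 0 without western diet replicate 1, 4, 7 or 8, without chow replicate 3, 6 or 8 and without the 2 pancreatic libraries together, and 2 without western diet replicate 5 or chow replicate 4.

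Of 21 genes of sterol outflow, storage and transport, 6 rose, 4 fell and 11 did not pass, with a median log2 difference of 0.069. These shares, too, are near those of all tested genes, of which 24.8% rose and 23.6% fell. Abcg1, which exports cholesterol from cells, rose 2.74-fold (46.6 ± 8.47 CPM on western diet, 17.1 ± 2.98 CPM on chow, adjusted p = 9.35e-09 by edgeR). Soat1, which makes cholesteryl esters, rose 2.45-fold, Gramd1b, which carries sterol from the plasma membrane inward, 2.89-fold, and Npc2, a lysosomal sterol carrier, 1.45-fold. Abca1 and Abcg5, exporters as well, rose by 0.56 ± 0.11 and 0.90 ± 0.20 in log2. Npc1, the lysosomal membrane partner of Npc2, fell by 0.56 ± 0.086 on the log2 scale, as did the bile acid enzymes Cyp8b1 (by 0.97 ± 0.14) and Cyp27a1 (by 0.28 ± 0.089) and the carrier Stard5 (by 0.27 ± 0.075). Macrophages also express Abcg1, Soat1, Abca1 and Npc2, and the macrophage markers rose in the same livers (summed level 1047 to 1705 CPM on western diet, 439 to 683 CPM on chow); their part was not tested.

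Of 10 genes of SREBP1, the related factor, and of the fatty acid synthesis it controls, 6 rose, 1 fell and 3 did not pass, with a median log2 difference of 0.47. Of all tested genes 24.8% rose and 23.6% fell; without chow replicate 7 or 9, 2 genes of the list fell. Srebf1 rose 2.09-fold (264 ± 35.5 CPM on western diet, 126 ± 67.2 CPM on chow, adjusted p = 0.00219 by edgeR), beside the 1.39-fold fall of Srebf2. Thrsp, a lipogenic protein, rose 3.07-fold, Pklr, pyruvate kinase of the liver, 1.91-fold, and Acaca, which makes malonyl-CoA, 1.43-fold; Fasn and Elovl6 rose as well (0.45 ± 0.16 and 0.49 ± 0.16 in log2). Me1, the malic enzyme that provides NADPH, fell by 0.72 ± 0.18 on the log2 scale. The difference between the lists was not tested.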

How the data were processed

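Each library's deposited values are expected counts by gene symbol, unscaled and in multiples of 0.5. The tools named per the submitters' processing notes are FastQC, HOMER, MultiQC and STAR 2.4.1c, and the build is mm10; the sources used here do not give options, the strand setting or how duplicate and multiply matched reads were treated. Reads of overlapping genes and close copies can therefore be shared. Of 24940 genes 3 had no value. Counts were rounded, filtered with filterByExpr (13204 genes left), scaled by TMM and tested with edgeR 4.0.16 (R 4.3.3, glmQLFit and glmQLFTest with robust estimation, diet alone as design, two-sided). The SE is the log2 difference over the square root of F. CPM are TMM-scaled. Ratios used counts + 0.5. The fit was tested on simulated data of 13071 genes, in which 109 were changed by 0.585 and 87 by 1 in log2. It recovered 68.8% and 86.2% of these, and 5.06% of its calls were false. Far fewer genes were changed there than passed in these data. limma 3.58.1, DESeq2 1.42.0 and sva 3.50.0 gave alternatives; the other steps ran in Python 3.11.15 with scipy 1.17.1, and matplotlib 3.10.9 drew the plots.

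The 27 genes, the other lists and the tests were chosen with earlier results of these data known. Values in every library are summarised for the 8 genes with the smallest adjusted p, for those that rose and for Srebf2, Scap, Insig1 and Insig2; of other lists up to 4 genes with the smallest adjusted p are named, less those not reported here. Positions are from the RefSeq table of GRCm38.p6, in which all 27 genes matched by symbol. Some genes of the pathway are not reported here. Each library was taken as 1 mouse, so p-values, SE and SD hold the spread between mice; the level of 3 counts covers counting error only. A planned look at promoter sequences was not made.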

Additional observations from a re-analysis of the deposited data

Results flagged for a closer look

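In Hsd17b7, western diet replicate 3 stood apart from the other western diet livers: it held 71.8 CPM, and its gap to the next liver was 0.528 of the range of the 8 livers, against a critical value of 0.526 (Dixon's test). It still lay below all chow livers, the lowest of which held 138 CPM. Chance flags about 1 in 20 groups, and 54 groups of libraries (27 genes in 2 diets) were looked at, with this 1 flag.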

How the results depend on the processing

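No direction of the 27 genes changed in 14 alternatives or in the 17 fits that left out 1 library, and 20 of the 21 genes that fell passed in each of those 17 fits, Acat2 being the exception. Leaving out 1 library gave 20 to 23 falls, 1 to 2 rises and a median log2 difference of −0.68 to −0.56. A test against a 1.5-fold change (glmTreat) left 11 falls and 0 rises, with 195 falls and 1108 rises over all genes. The 2 rises were 1 with DESeq2, 1 with limma-voom, and 0 with no low count filter (2 at an unadjusted p under 0.05), with an adjusted p under 0.01 and without the 2 pancreatic libraries (1 at an unadjusted p under 0.05); the cause was not tested. With library size alone 18 genes fell, Acat2, Ebp and Insig2 being lost, the median of the 27 genes was −0.50 where that of all genes moved to 0.12 from −0.0091, and all calls were 1615 falls and 4485 rises (73.5% rises) in place of 3122 and 3271 (51.2%). Sc5d passed in 8 of the 14 alternatives and Mvd with 1 surrogate variable. The log2 difference of the ratio of Insig1 to Insig2 was −0.78 to −0.53 leaving out 1 library and −0.88 without the 2 pancreatic libraries (exact permutation p = 0.0124). On chow 10 genes followed Sqle with library size alone in place of 4; no gene did on western diet in any alternative. No paired analysis was possible because the replicate numbers only name libraries within a diet and tie no western diet mouse to a chow mouse. The planned promoter alternatives were not run. Depth limited Ch25h, which was not tested in the main fit.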

Other observations

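Ch25h, which makes an oxysterol that holds SREBP2 back by way of INSIG, did not pass the low count filter. Its counts ran from 0 to 13.5 per library. The lowest, median and highest levels were 0.283, 1.16 and 1.73 CPM on western diet, and 0, 0.157 and 0.488 CPM on chow, where a level of 3 counts was 0.314 to 0.85 CPM. In 6 of 8 western diet livers Ch25h lay above all chow livers. The main fit did not test the difference, and its result with no low count filter is not given.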
